A study of Mus musculus with 8 samples.

Results

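The genes described here are 9 genes of glycogen synthesis and breakdown that are expressed in liver, chosen by name: Gys2, Gbe1, Ugp2, Pgm1, Pgm2, Pygl, Phka2, Ppp1r3b and Ppp1r3c. They are 9 of 35275 gene rows in the table, and all 9 were among the 13168 genes with enough reads to be tested. RNA was sequenced from liver of 4 Pcx L-/- mice and 4 littermates labelled WT, all male, 9 weeks old, on a C57BL/6 background and fed standard chow before a fast of 24 h. Pcx L-/- mice carry floxed alleles of Pcx and a Cre driven by the albumin promoter, which deletes the gene in hepatocytes. The mice labelled WT are, by the study's methods, Pcx f/f littermates, so floxed alleles are common to both genotypes. That these controls lack the Cre is implied by that name and not stated. Pcx encodes pyruvate carboxylase, the mitochondrial enzyme that makes oxaloacetate from pyruvate at the start of gluconeogenesis. All animals were fasted, so the fed state was not measured.

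Glycogen is the glucose store of the liver. In synthesis, glucose 6-phosphate is turned to glucose 1-phosphate by phosphoglucomutase and then to UDP-glucose by UDP-glucose pyrophosphorylase. Glycogen synthase adds these glucose units to a chain begun on glycogenin, and the branching enzyme makes the branch points. In breakdown, glycogen phosphorylase releases glucose 1-phosphate. Phosphorylase is switched on by phosphorylase kinase, while protein phosphatase 1, brought to glycogen by targeting subunits of the Ppp1r3 family, switches synthase on and phosphorylase off. Fasting empties this store, and these transcripts say nothing of the amount of glycogen or of the activity of the enzymes, which are set largely by phosphorylation and by glucose 6-phosphate.

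In fasted liver without Pcx, 6 of the 9 genes fell, 1 rose and 2 did not pass the test. The largest fall was in Pygl, the liver glycogen phosphorylase, and the only rise was in Pgm2. The genes that fell came from both directions of the pathway. They encode synthase (Gys2) and the branching enzyme (Gbe1), phosphorylase (Pygl) and the regulatory subunit of its kinase (Phka2), the main phosphoglucomutase (Pgm1), which serves both directions, and a phosphatase targeting subunit (Ppp1r3b). The 7 called genes compare with 27.6% of all tested genes called in either direction, 13.5% lower and 14.1% higher. A gene was called when its p from the quasi-likelihood test of edgeR, adjusted by Benjamini-Hochberg across all 13168 tested genes, was under 0.05. The median log2 fold change of the 9 genes was -0.66, against -0.01 over all tested genes.

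The RefSeq promoter table held 8 windows for 7 of these genes. Printed here are those of the gene that fell most and of the phosphoglucomutase pair that moved apart. Each is the 250 bases before the RefSeq transcript start in GRCm38.p6, written 5′ to 3′ on the strand of the gene, with matches to the searched motifs in capitals. The Pygl window lies inside the span of the gene given below, which begins further upstream, in bases not searched. The last bases of the Pgm1 window also lie inside the span given for that gene.
Pygl, chr12:70227684-70227933, minus strand: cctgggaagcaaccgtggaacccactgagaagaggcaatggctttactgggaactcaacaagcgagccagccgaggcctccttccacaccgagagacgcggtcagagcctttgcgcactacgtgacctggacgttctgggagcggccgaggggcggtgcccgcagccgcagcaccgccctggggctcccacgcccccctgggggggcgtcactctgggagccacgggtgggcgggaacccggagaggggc
Pgm1, chr4:99929201-99929450, plus strand: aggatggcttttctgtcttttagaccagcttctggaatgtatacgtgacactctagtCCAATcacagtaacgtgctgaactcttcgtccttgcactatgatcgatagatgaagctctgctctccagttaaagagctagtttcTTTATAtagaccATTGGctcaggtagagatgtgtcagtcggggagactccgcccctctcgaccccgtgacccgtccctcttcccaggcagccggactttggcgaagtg
Pgm2, chr5:64092689-64092938, plus strand: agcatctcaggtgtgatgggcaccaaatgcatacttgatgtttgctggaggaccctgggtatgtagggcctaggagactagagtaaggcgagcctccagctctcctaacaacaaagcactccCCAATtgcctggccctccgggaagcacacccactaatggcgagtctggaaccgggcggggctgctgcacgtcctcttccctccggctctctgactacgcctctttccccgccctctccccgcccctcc
The letters searched, on both strands, were TGACGTCA for the cAMP response element, TGATGNAA for a C/EBP-ATF element, CACGTG for the E-box, GTAAACA for the forkhead element, TATAAA for the TATA box and CCAAT for the CCAAT box. No motif searched overlaps another by its letters in these windows. The Pygl window held none of the 6 motifs and was 69.2% G and C, against a median of 52.4% over all promoters in the table. In the Pgm1 window, at 50.4% G and C, the capitals mark a match to the TATA box letters and a pair of CCAAT boxes. The TATA match is on the opposite strand and begins at -108 from the start. Such a match is held by 12.4% of the 32851 promoters. The Pgm2 window, at 60.4% G and C, held a single CCAAT box, and 33.8% of all promoters hold at least one. None of the 8 windows held the cAMP response element, the C/EBP-ATF element or the forkhead element, whose shares among all promoters were 1.55%, 3.45% and 3.17%. The only E-box was in the window of Ppp1r3c, against 6.02% of all promoters. These are matches of letters and not measured sites.

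The libraries held 12016242 to 20023108 counted reads. Pcx itself had normalized counts of 556 to 758 in the Pcx L-/- livers and 14371 to 22059 in WT, a log2 change of -4.80 (adjusted p = 3.66e-07), so the labels and the targeted gene go together. Normalized counts are reads scaled to a common library size with edgeR's TMM factors, which assume that most genes do not differ. The factors were 0.833 to 0.942 in WT and 1.14 to 1.17 in Pcx L-/- replicates 2 to 4, but 0.970 in replicate 1. Pcx L-/- replicate 1 also stood apart on the first principal component, at -6.6 against -39.2 to -48.7 in the other 3 Pcx L-/- livers and 29.0 to 43.8 in WT. Its summed red cell markers reached 5338 FPKM, the measure of reads scaled by gene length and library total, against 559 to 1412 in the other Pcx L-/- livers and 317 to 1231 in WT. Of the 7 hepatocyte markers, 3 fell, Apoa1, Trf and Apob, and none rose, with a median log2 change of -0.73 and a summed level of 32004 to 40487 FPKM against 44754 to 49001 in WT, replicate 1 being the highest of the Pcx L-/- livers. In DESeq2 5 of the 7 were called, Alb and Cps1 as well, and the same 5 had an unadjusted p under 0.05 in edgeR, where the groups did not overlap for Alb (log2 change -0.63, adjusted p = 0.0532). None of the macrophage, endothelial and stellate markers was called in edgeR, where 2 of these 18 genes, Stab2 and Kdr, had an unadjusted p under 0.05, and none was called in DESeq2. The summed hepatocyte markers were thus lower in all 4 Pcx L-/- livers, beside the lower glycogen genes, and their part in those differences was not tested. Most of that sum is Alb, at 23152 to 28471 FPKM in Pcx L-/- and 30812 to 34277 in WT. In FPKM, Ttr, Trf, Apob, Tat and Cps1 overlapped between genotypes, and Alb and Apoa1 did not. In a piece of whole liver, fewer cells of a type and less RNA per cell cannot be told apart.

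Pcx L-/- replicate 1 was the nearest of the 4 Pcx L-/- livers to the WT mean for all 7 called genes. Without it, 8 of the 9 genes were called, 7 lower and 1 higher. Calls over the whole table rose as well, to 4602 of 13330 tested genes, from 3632 of 13168. The higher mouse number series holds 3 Pcx L-/- and 2 WT mice, and leaves out replicate 1 and the WT mice numbered near it. In that series alone 7 of the 9 genes were called, 6 lower and 1 higher, beside 4016 of 13471 tested genes. The other mouse number series holds 1 Pcx L-/- mouse and gives no value of its own.

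**Figure D1:**
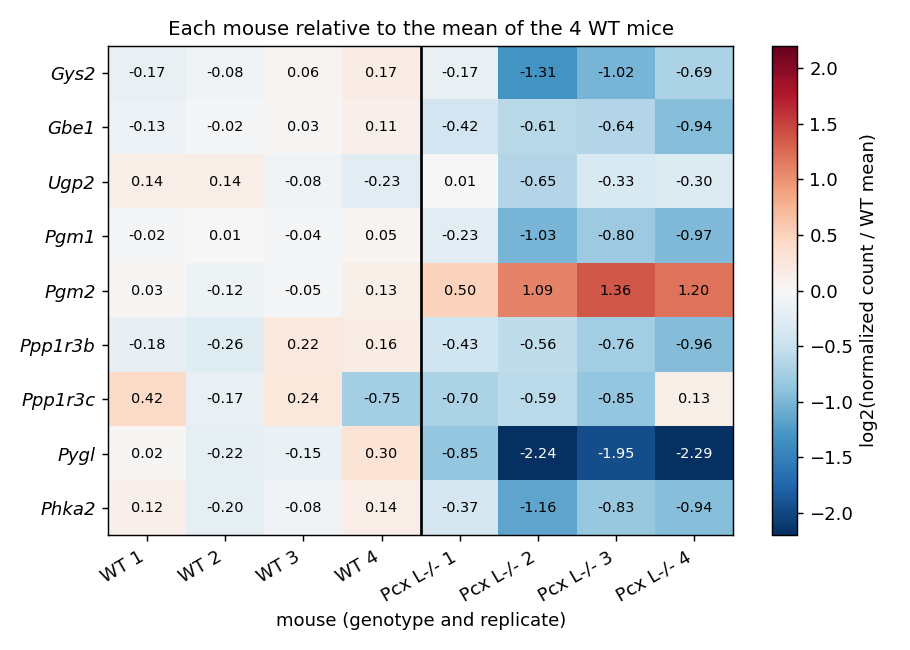
Log2 of each mouse's normalized count over the mean of the 4 WT mice (color and printed value), for the 9 genes in rows and the 8 mice in columns. Pygl is at -1.95 to -2.29 in Pcx L-/- replicates 2 to 4 and at -0.85 in replicate 1, and Pgm2 is above the WT mean in all 4.

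Gys2 encodes the liver isoform of glycogen synthase, the enzyme that lengthens the glucose chains. Its normalized counts in WT were 3847, 4072, 4486 and 4854, and in Pcx L-/- they were 3843, 1744, 2125 and 2669, in order of replicate. The groups did not overlap, but Pcx L-/- replicate 1 lay just under the lowest WT mouse while the other 3 were well below. The mean was 60.1% of that in WT, a log2 change of -0.73 ± 0.21 (SE, adjusted p = 0.0260). This call depended on single libraries: the adjusted p was 0.0663 without Pcx L-/- replicate 2, 0.0800 without replicate 3, 0.0660 without replicate 4, 0.0631 without WT replicate 3 and 0.0538 without WT replicate 4. Without Pcx L-/- replicate 1 the log2 change was -0.99 (adjusted p = 6.18e-04). The gene lies on chromosome 6, bases 142422613 to 142473109 of GRCm38, on the minus strand.

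Gbe1, on chromosome 16 (70313949 to 70569716, plus strand), encodes the branching enzyme. Normalized counts were 1275, 1374, 1427 and 1500 in WT and 1044, 911, 892 and 727 in Pcx L-/-. Every Pcx L-/- liver was below every WT liver. The mean was 64.1% of that in WT, with a log2 change of -0.64 ± 0.12 (SE, adjusted p = 0.00389), and the gene stayed called in all 18 alternative fits.

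Ugp2, on chromosome 11 (21321138 to 21371201, minus strand), encodes UDP-glucose pyrophosphorylase, which makes the UDP-glucose that synthase uses. Its normalized counts were 5437, 5417, 4649 and 4200 in WT and 4950, 3136, 3926 and 4009 in Pcx L-/-. The groups overlapped, since Pcx L-/- replicate 1 was above 2 of the WT mice. The log2 change of -0.30 did not pass the test (95% interval -0.64 to 0.04, adjusted p = 0.178). Without Pcx L-/- replicate 1 it was -0.42 and was called (adjusted p = 0.0351), and with scaling by library size alone it was -0.03.

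Pgm1 and Pgm2 encode phosphoglucomutases and moved in opposite directions. Pgm1 is the main enzyme between glucose 6-phosphate and glucose 1-phosphate, whereas the Pgm2 protein is known to act mainly on pentose phosphates. Some annotations have used these mouse symbols the other way round. Here Pgm1 is ENSMUSG00000025791 on chromosome 4 (99929414 to 99987294, plus strand) and Pgm2 is ENSMUSG00000029171 on chromosome 5 (64092950 to 64128351, plus strand). These are the genes whose promoters are printed above.

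Pgm1 normalized counts were 4102, 4174, 4026 and 4309 in WT and 3547, 2033, 2393 and 2123 in Pcx L-/-. The WT mice lay close together, and all 4 Pcx L-/- livers were below them, replicate 1 the least so. The mean was 60.8% of that in WT, a log2 change of -0.72 ± 0.17 (SE, adjusted p = 0.0105). Exons of Pgm1 share 398 bases with Itgb3bp on the other strand, a gene with 491 reads over all 8 libraries. Strand use in counting was not given in the sources used here, so reads from those bases cannot be told apart.

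Pgm2 normalized counts were 101, 91, 95.7 and 109 in WT and 141, 211, 254 and 227 in Pcx L-/-. All 4 Pcx L-/- livers were above all WT livers. The mean was 2.10 times that in WT, a log2 change of 1.08 ± 0.18 (SE, adjusted p = 0.00242). In FPKM, which allows genes to be compared per length, Pgm2 went from 2.21 ± 0.0886 to 5.76 ± 1.67 (SD, n = 4) and Pgm1 from 87.8 ± 3.44 to 64.1 ± 11.5. Pgm2 thus remained well below Pgm1 in each genotype.

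The ratio of Pgm1 to Pgm2 within a library needs no scaling between libraries. In FPKM it was 38.4, 43.4, 39.8 and 37.5 in WT and 23.9, 9.13, 8.90 and 8.84 in Pcx L-/-. The groups did not overlap, with Pcx L-/- replicate 1 between the WT mice and the other 3. The difference in log2 ratio was -1.80, with an exact two-sided permutation p of 0.0286, the smallest that 4 against 4 can give, and 0.0429 after adjustment over the 3 ratios tested. In FPKM, Pgm1 was lower and Pgm2 higher in every Pcx L-/- liver than in every WT liver. The ratios therefore had to separate, and this p adds nothing to the results of the single genes.

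**Figure D2:**
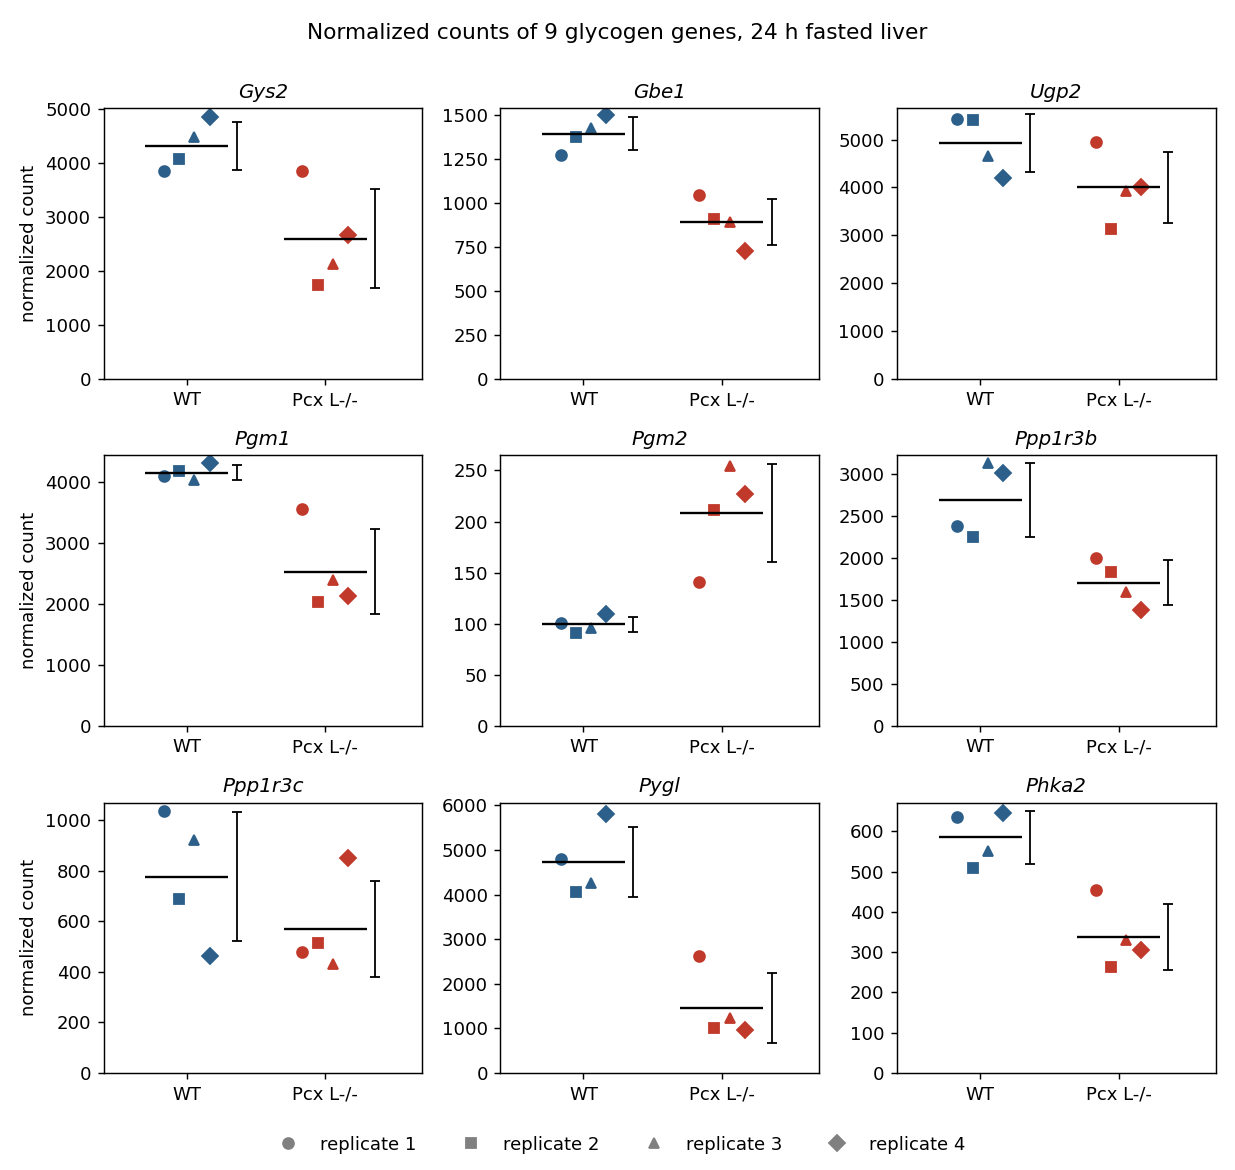
Normalized counts (TMM, linear axis from 0) of the 9 genes in the 4 WT and 4 Pcx L-/- livers, with a marker shape for each replicate, a line at the mean and a bar of 1 SD on each side. The genotypes do not overlap for 7 genes, and overlap for Ugp2 and Ppp1r3c.

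Pygl encodes the liver isoform of glycogen phosphorylase, the enzyme that releases glucose 1-phosphate from glycogen. Its normalized counts were 4798, 4059, 4248 and 5806 in WT and 2625, 1002, 1223 and 965 in Pcx L-/-. Every Pcx L-/- liver was below every WT liver, with replicate 1 midway between the WT mice and the other 3. The mean was 30.8% of that in WT, a log2 change of -1.70 ± 0.30 (SE, 95% interval -2.35 to -1.05, adjusted p = 0.00271). Without Pcx L-/- replicate 1 the log2 change was -2.15, and among the mice of the higher number series it was -2.24. The fall was larger than that of any of the 7 hepatocyte markers, of which Apoa1 at -1.04 fell most. The other glycogen genes called lower, at -0.64 to -0.80, lay within the range of those markers, -0.43 to -1.04. These differences between genes were not tested. Pygl lies on chromosome 12 (70190811 to 70231488, minus strand).

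Synthase and phosphorylase transcripts were at similar levels in fasted WT liver, 86.4 ± 5.39 FPKM for Gys2 and 83.8 ± 9.42 FPKM for Pygl (SD, n = 4). The ratio of Gys2 to Pygl within a library was 0.903, 1.13, 1.19 and 0.941 in WT and 1.65, 1.96, 1.96 and 3.11 in Pcx L-/-. Both transcripts fell, but Pygl fell more, so that all 4 Pcx L-/- livers held more Gys2 than Pygl per length and none overlapped with WT. The mean log2 ratio was 1.07 ± 0.39 in Pcx L-/- and 0.05 ± 0.19 in WT (SD), a difference of 1.03 (exact two-sided permutation test, p = 0.0286, adjusted p = 0.0429). That p is the smallest that 4 against 4 can give. The adjusted p is under 0.05 only because the Pgm1 to Pgm2 ratio, which had to separate, reached the same p. Here replicate 1 had the lowest ratio of the 4, and replicate 4 the highest. Without Pcx L-/- replicate 1 the difference was 1.14, and without replicate 4 it was 0.84.

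**Figure D3:**
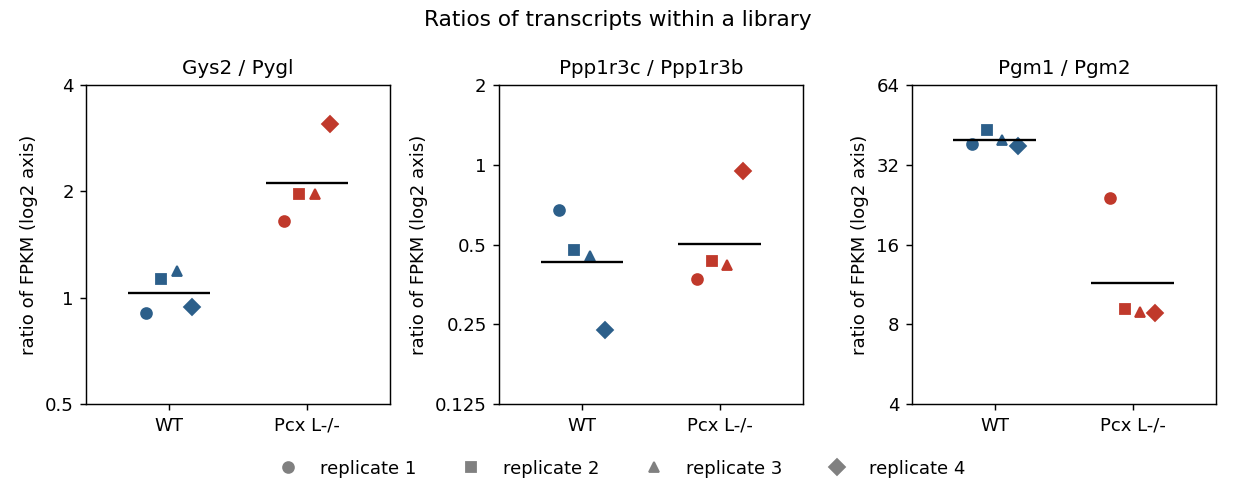
Ratios of FPKM between gene pairs within each library, on log2 axes, with a marker shape for each replicate and a line at the geometric mean. The Gys2 to Pygl ratio is 0.903 to 1.19 in WT and 1.65 to 3.11 in Pcx L-/-, the Pgm1 to Pgm2 ratio is lower in all 4 Pcx L-/- livers, and the Ppp1r3c to Ppp1r3b ratio overlaps between genotypes.

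Phka2 encodes the liver form of the regulatory alpha subunit of phosphorylase kinase, and is located on chromosome X (160502166 to 160598878, plus strand). Normalized counts were 636, 509, 552 and 645 in WT and 454, 263, 329 and 305 in Pcx L-/-. The groups did not overlap, and replicate 1 was again the highest of the Pcx L-/- livers. The mean was 57.6% of that in WT, a log2 change of -0.80 ± 0.16 (SE, adjusted p = 0.00559).

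The other subunits of phosphorylase kinase gave no call among 4 genes tested. Phkb, the shared beta subunit, had a log2 change of 0.14 (95% interval -0.15 to 0.42, adjusted p = 0.469). Phkg2, the catalytic subunit found in liver, had one of -0.35 (95% interval -0.68 to -0.02, adjusted p = 0.112) and was the 1 gene of the 4 with an unadjusted p under 0.05 in edgeR, while DESeq2 called none. The muscle forms Phka1 and Phkg1 were low in both genotypes, at up to 1.55 FPKM on average. The difference in change between Phka2 and its partner subunits was not tested.

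Ppp1r3b and Ppp1r3c encode targeting subunits that bring protein phosphatase 1 to glycogen. Ppp1r3b, on chromosome 8 (35375739 to 35388139, plus strand), is the form best known in liver, also called GL. Its normalized counts were 2385, 2248, 3135 and 3011 in WT and 2001, 1832, 1596 and 1387 in Pcx L-/-. The groups did not overlap. The mean was 63.2% of that in WT, with a log2 change of -0.66 ± 0.15 (SE, adjusted p = 0.00947), and the gene stayed called in the 18 alternative fits, with an adjusted p of at most 0.0478.

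Ppp1r3c, on chromosome 19 (36731731 to 36736653, minus strand), encodes the subunit known as PTG, for protein targeting to glycogen. Its normalized counts were 1038, 690, 921 and 462 in WT and 478, 515, 432 and 850 in Pcx L-/-. The groups overlapped, WT replicate 4 lying with the low Pcx L-/- livers and Pcx L-/- replicate 4 among the WT mice. The log2 change of -0.46 did not pass the test (95% interval -1.03 to 0.11, adjusted p = 0.218), nor did it in any alternative fit. The ratio of Ppp1r3c to Ppp1r3b was 0.673, 0.475, 0.454 and 0.237 in WT and 0.370, 0.435, 0.418 and 0.948 in Pcx L-/-, with a difference in log2 ratio of 0.22 (exact two-sided permutation p = 0.657). That difference changed sign without Pcx L-/- replicate 4 (-0.08) and without WT replicate 4 (-0.06).

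The order of the 9 genes by level per length was much the same in both genotypes. In WT liver Ugp2 was highest at 98.5 ± 16.7 FPKM (SD, n = 4), followed by Pgm1, Gys2 and Pygl, and neighbours among these 4 overlapped between mice. Ppp1r3b followed at 34.1 ± 4.82 FPKM, below all of them in every mouse, and Gbe1 at 19.9 ± 0.881 FPKM. Ppp1r3c, at 15.4 ± 5.52 FPKM, overlapped with Gbe1, and Phka2 (7.18 ± 0.655 FPKM) and Pgm2 (2.21 FPKM) came last, each below the gene before it in all 4 mice.

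In Pcx L-/- liver Ugp2 was still highest, at 96.2 ± 11.1 FPKM, and was above Pgm1 in all 4 mice. Pygl, at 30.6 ± 13.2 FPKM, was below Gys2 (62.3 ± 16.3 FPKM) in every liver and no longer separate from Ppp1r3b (26.2 ± 3.24 FPKM), which it exceeded in 2 of 4 mice. At the low end Pgm2, at 5.76 FPKM, was above Phka2 (4.99 ± 0.770 FPKM) in 3 of 4 mice, the reverse of the order in WT. Levels in FPKM are scaled by total reads, so a difference between genotypes in FPKM is smaller for genes that fell and larger for those that rose than with TMM. In FPKM the genotypes did not overlap for 5 of the 9 genes, against 32.5% of all tested genes, with Gys2 and Ppp1r3b overlapping. In normalized counts 7 of 9 did not, against 27.6%.

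**Figure D4:**
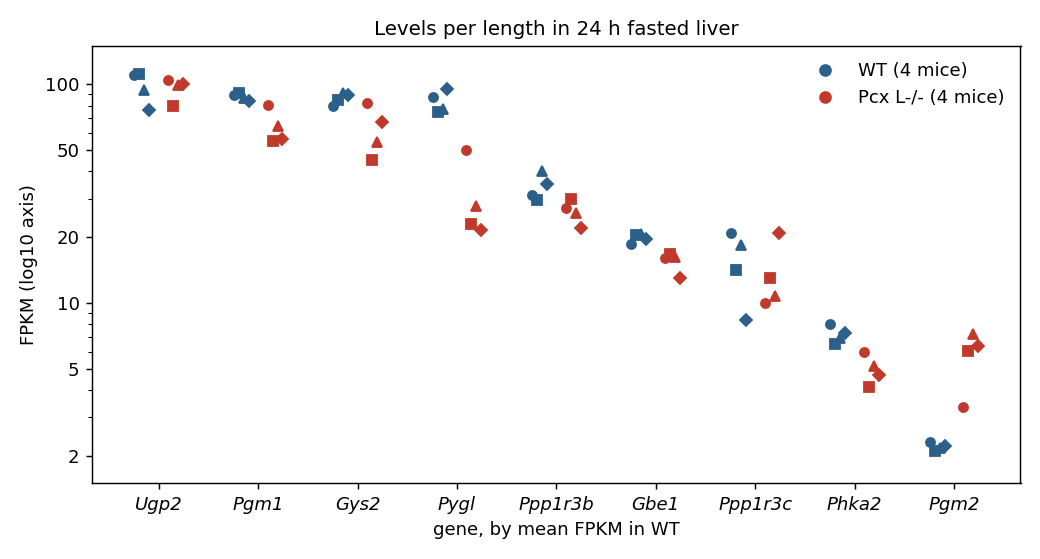
FPKM of the 9 genes in each of the 4 WT and 4 Pcx L-/- livers, on a log10 axis, with genes ordered by their mean in WT and a marker shape for each replicate. Ugp2, Pgm1, Gys2 and Pygl lie together at 75.2 to 112 FPKM in WT, while in Pcx L-/- liver Pygl averages 30.6 FPKM.

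The scaling changed the size of these differences. With library sizes alone the median log2 change of all tested genes was 0.28, and 81.8% of called genes were higher in Pcx L-/- liver, against 51.1% with TMM. The same 9 genes then gave 6 lower and 1 higher, with a median of -0.38, and kept their signs. Pygl was then at -1.45, Gys2 at -0.47, Gbe1 at -0.36, Pgm1 at -0.45, Phka2 at -0.53, Ppp1r3b at -0.38 and Pgm2 at 1.38. Taken relative to that shifted median, each of these values is lower by 0.28.

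Of the 36 other genes of the pathway listed, 34 were tested, and 9 were called, 5 higher and 4 lower. That is 26.5%, beside 27.6% of all tested genes. Their median log2 change was -0.12 with TMM, against -0.01 over all tested genes, and 0.16 with library sizes alone, against 0.28. The sign of their median thus changed with the scaling, while under both it lay below that of all tested genes. This small difference from all tested genes was not tested. Ppp1r3a and Ppp1r3d, targeting subunits, had too few reads to be tested.

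**Figure D5:**
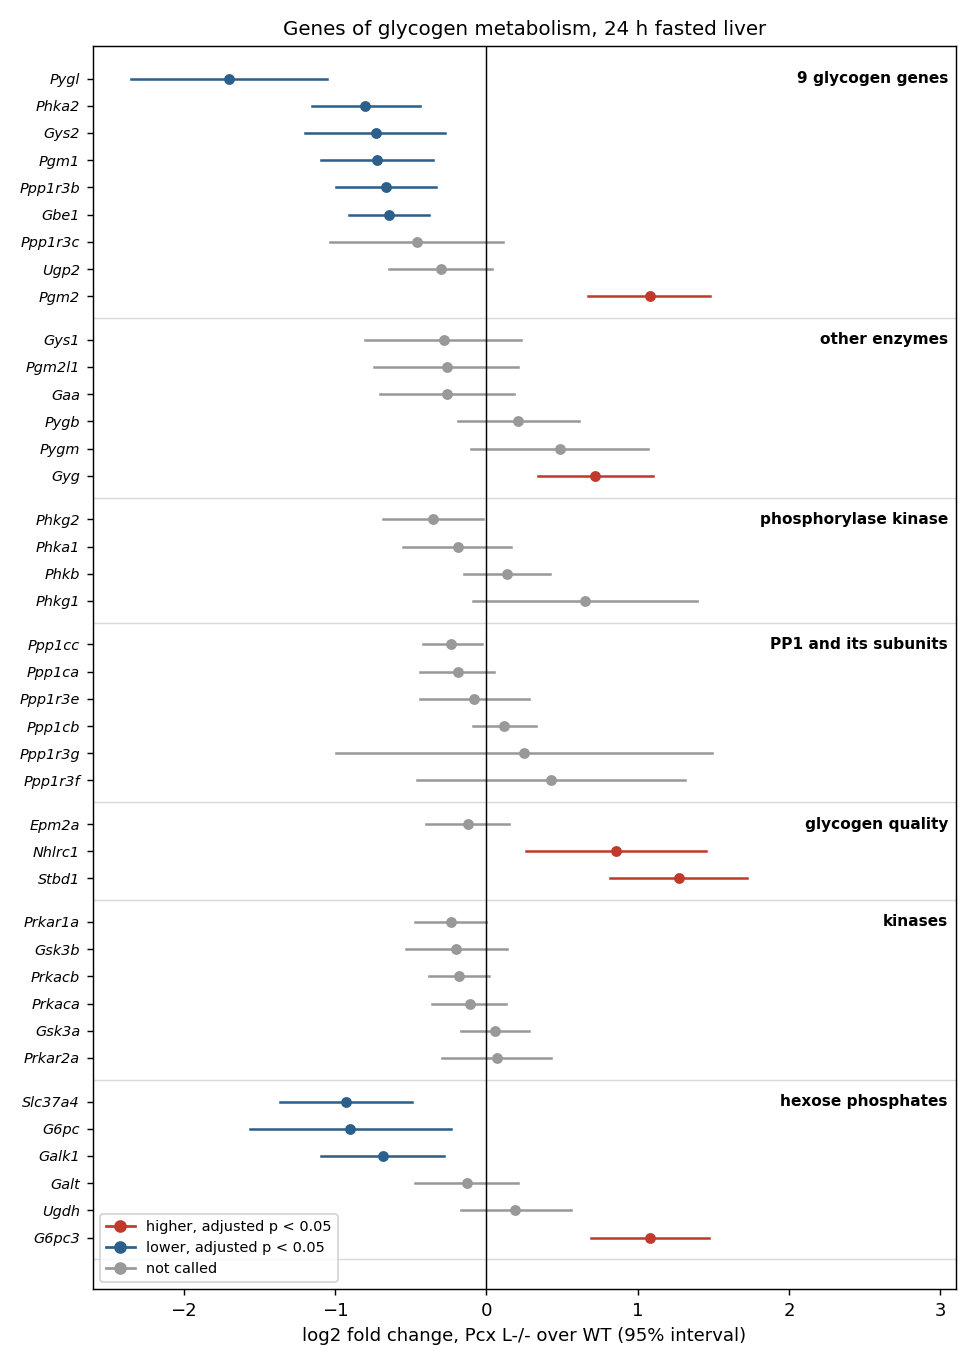
Log2 fold change of Pcx L-/- over WT with its 95% interval (edgeR) for the 9 genes and 31 of the other tested genes of the pathway, grouped by role. Red marks genes called higher, blue genes called lower and gray those not called, and the top group holds 6 of the 9 blue genes.

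Among the other enzymes of glycogen, Gyg rose. Gyg, the glycogenin on which a new chain is begun, had normalized counts of 93.8, 113, 76.3 and 81.5 in WT and 134, 175, 130 and 164 in Pcx L-/-, all of them higher, with a log2 change of 0.72 ± 0.17 (SE, adjusted p = 0.0113). The synthase and phosphorylase forms of other tissues did not pass the test: Gys1 was at -0.28 (adjusted p = 0.398), Pygb at 0.21 (adjusted p = 0.424) and Pygm at 0.49 (adjusted p = 0.206). They were low beside Gys2 and Pygl, at up to 2.12 FPKM on average. Gaa, the lysosomal enzyme that digests glycogen, was at -0.26 (adjusted p = 0.372).

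Of the genes tied to glycogen quality, Stbd1 rose most. Stbd1 encodes a glycogen-binding protein thought to link glycogen to membranes and lysosomes. Its normalized counts were 1312, 1798, 1420 and 1013 in WT and 2259, 4005, 3373 and 3766 in Pcx L-/-, all higher, with a log2 change of 1.27 ± 0.21 (SE, adjusted p = 0.00187) and a call in all 18 alternative fits. In FPKM it went from 37.6 to 111 on average. Nhlrc1, which encodes the ubiquitin ligase malin that is lost in Lafora disease, rose by 0.86 ± 0.27 (SE, adjusted p = 0.0364) from low counts, 16.1 to 26.4 in WT and 30.3 to 50.6 in Pcx L-/-. Its call was lost without each of Pcx L-/- replicates 2 and 4 and WT replicates 1 to 4, with adjusted p-values of 0.0503 to 0.119, and also with the replicate number as a block (adjusted p = 0.0668) and with the mouse number series as a covariate (adjusted p = 0.0547). Epm2a, which encodes its partner laforin, was at -0.12 (adjusted p = 0.506).

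The catalytic subunits of protein phosphatase 1 and its other targeting subunits gave no call among 6 tested genes in edgeR. Ppp1cc was the 1 gene with an unadjusted p under 0.05, at -0.23 (adjusted p = 0.0797), and was called in DESeq2. The 6 genes of glycogen synthase kinase 3 and protein kinase A, which phosphorylate synthase and phosphorylase kinase, gave no call either in edgeR or in DESeq2. Prkar1a, at -0.23 (adjusted p = 0.123), was the 1 gene among them with an unadjusted p under 0.05.

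At the hexose phosphates, where glycogen meets gluconeogenesis, genes moved in both directions, with Slc37a4, G6pc and Galk1 lower and G6pc3 higher. Slc37a4, which carries glucose 6-phosphate into the endoplasmic reticulum, had 5492, 5122, 5763 and 6938 normalized counts in WT and 4468, 2449, 2882 and 2448 in Pcx L-/-, all lower, with a log2 change of -0.93 ± 0.20 (SE, adjusted p = 0.00674). G6pc, the catalytic subunit of glucose 6-phosphatase in liver, had 8334, 3388, 7310 and 11581 in WT and 3030, 5053, 3810 and 4541 in Pcx L-/-. WT replicate 2 lay among the Pcx L-/- livers, and the other WT mice lay above them. Its log2 change of -0.90 ± 0.30 (SE, adjusted p = 0.0477) was just past the threshold, and the call was lost without any single library other than WT replicate 2, with adjusted p-values of 0.0635 to 0.125. It was also lost with library sizes alone (-0.57, adjusted p = 0.136), in limma on FPKM at both pseudocounts (-0.51, adjusted p = 0.233 and 0.234) and with the replicate number as a block (-0.81, adjusted p = 0.0841). G6pc3, the more widely expressed form, rose in all 4 Pcx L-/- livers, by 1.08 ± 0.18 (SE, adjusted p = 0.00197), and its mean FPKM was 10.9 against 112 for G6pc.

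Galk1, the galactokinase that begins the use of galactose, had normalized counts of 1619, 1512, 1394 and 1195 in WT and 1287, 727, 823 and 726 in Pcx L-/-. It fell by 0.68 on the log2 scale (edgeR, adjusted p = 0.0188). Galk1 overlapped between genotypes and lost its call without Pcx L-/- replicates 2, 3 or 4 or WT replicate 1, with adjusted p-values of 0.0550 to 0.0659. It was also not called with library sizes alone (-0.43, adjusted p = 0.0550) or in limma on FPKM at both pseudocounts (-0.42 and -0.43, adjusted p = 0.0637).

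Variation within a genotype was compared for 8 of the 9 genes, and Pgm2 was left out because its mean was under 10 CPM. Over the 8 libraries, log2 CPM was correlated after the mean of each genotype was subtracted. The correlation with Pygl was 0.96 for Pgm1, 0.93 for Phka2, 0.79 for Gys2, 0.74 for Gbe1, 0.56 for Ppp1r3b and 0.53 for Ugp2, but -0.43 for Ppp1r3c. With Gys2 it was 0.83 for Pgm1, 0.81 for Phka2, 0.6 for Ugp2, 0.38 for Gbe1, 0.34 for Ppp1r3b and -0.1 for Ppp1r3c. The 8 points share the libraries and their scaling, and Pcx L-/- replicate 1 lies far from the other 3, so these values are given as a description. Among 7919 genes with a mean of at least 10 CPM, those most like Pygl by this measure were Abat (0.994), Bach1 (0.989) and Ndufs1 (0.989). Those most like Gys2 were Klhl2 (0.980), Scrn2 (0.973) and the hepatocyte marker Alb (0.962).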

How the data were processed

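The authors deposited a table of raw counts per gene and a table of FPKM for 8 liver libraries of total RNA. The submitters' processing notes name STAR 2.5, HTSeq 0.6.1, DESeq2 and the mm10 build. The annotation release and strand setting were not given in the sources used here. Deposited FPKM values equal count over length and total reads for 100% of 142384 values above 0 (relative tolerance 1e-06), so they carry no correction for composition. Columns of other samples numbered 0. Genes were matched by identifier to GENCODE M21 symbols for 34490 of 35275 rows, and sequences are from RefSeq.

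Counts were tested in edgeR 4.0.16 (R 4.3.3) with TMM scaling and the quasi-likelihood test of genotype, with no covariate. Genes were kept with at least 15 reads in total and, in at least 4 libraries, 10 reads scaled to the median library size. Adjusted p-values are Benjamini-Hochberg over 13168 genes and the threshold was 0.05. Fits with DESeq2 1.42.0 and limma 3.58.1 (on log2(FPKM + 1) and log2(FPKM + 0.1)), other scalings and filters, and fits leaving out each library were alternatives. In counts simulated with known changes, edgeR called 95.9% of 196 changed genes among 13032, with 7 false calls. The simulation held far fewer changed genes than the 3632 called in the data. Its rates therefore check the procedure and cannot be carried over to the calls reported here. Ratios were tested by exact permutation in SciPy 1.17.1. Each library carries its own mouse number, so p-values measure the spread between these mice.

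Named were the 9 genes, the other pathway genes past the threshold, Gyg, Phkb, Phkg2, G6pc and Slc37a4, the 3 genes most like Gys2 and Pygl, and Pcx; other pathway genes named without a call were chosen after their values were seen. Some listed pathway genes enter the counts but are not reported here by name. The genes and lists were chosen with earlier results of these data known. Of the other marker lists, cholangiocyte markers had 1 call, lower (Sox9), and pancreas 1, higher (Cela1). Red cell, lymphocyte and muscle markers had 0 in edgeR and in DESeq2 and 0 at an unadjusted p under 0.05, and adipose markers were at or near 0.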

Additional observations from a re-analysis of the deposited data

Results flagged for a closer look

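Of 50 groups of 4 libraries checked, 3 held a value far from the other 3 by Dixon's criterion at the 95% level, and chance alone gives about 1 in 20. For Pygl the normalized count of Pcx L-/- replicate 1, at 2625, was far above the 965 to 1223 of the other Pcx L-/- livers. The log2 ratio of Pgm1 to Pgm2 in the same library, at 4.58, was likewise far from the others, whose ratios were 8.84 to 9.13 on the linear scale. For Phkg2 the count of Pcx L-/- replicate 3, at 196, was below the 210 to 213 of the other Pcx L-/- livers, which lie very close together.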

How the results depend on the processing

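The 9 genes kept their signs in all 18 alternative fits, with 6 to 8 called. Gbe1, Pgm1, Pgm2, Pygl, Phka2 and Ppp1r3b were called in each, Gys2 lost its call without each of 5 libraries and Ugp2 gained one without Pcx L-/- replicate 1. Leaving out 1 library at a time gave 2109 to 4602 called genes over the whole table, with 2295 without Pcx L-/- replicate 2 and 2109 without replicate 4, against 3632. The log2 ratio of Gys2 to Pygl then differed by 0.84 to 1.14 and that of Pgm1 to Pgm2 by -2.15 to -1.67, but 3 against 4 cannot give an exact p under 0.0571. The ratio of Ppp1r3c to Ppp1r3b ranged from -0.08 to 0.44. With scaling by library size, 81.8% of calls were higher, and 82.3% and 82.1% with limma on FPKM at pseudocounts of 1 and 0.1, against 51.1%. The fit on mice of the higher number series was chosen after seeing the data.

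With the replicate number as a block, 7 of the 9 genes, 7 other pathway genes and 2975 genes in all were called. The numbers did not pair the samples: deviations of same-numbered mice correlated at 0.0957, -0.127, -0.0936 and -0.0676, and 2 of 8 samples correlated best with their own number. Low counts kept Ppp1r3a (0 to 2 reads in a library) and Ppp1r3d (2 to 8 reads) out of the test.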
